A study of Mus musculus with 4 samples.

Results

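The cytosolic ribosomal protein genes were taken as the protein-coding genes whose symbol matches Rpl or Rps followed by a digit, or is Rplp0, Rplp1, Rplp2 or Rpsa, leaving out kinases of the Rps6k family and symbols with -ps. This gave 86 genes among 21474 protein-coding genes and 43629 genes in all: 43 of the large subunit, 31 of the small subunit, 3 of the stalk, and 9 paralogs or similar symbols. Of these 9, Rps19bp1 and Rpl7l1 name no component of the ribosome. The genes lie on 19 chromosomes, with 4 of them on X.

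The series holds 4 RNA-seq libraries of mouse islets of Langerhans, where the pancreas makes insulin and glucagon, from the C57BL/6 strain, with 1 library per group. The groups are islets of genotype Rip2;IMP2, which the series calls an islet-specific knockout of IMP2; RNA immunoprecipitated with IMP2 from wild-type islets (the RIP); a library labelled IgG, also from wild-type islets, the antibody without a target that serves as background in such experiments; and control islets. IMP2, encoded by Igf2bp2, is an RNA-binding protein of cytoplasmic mRNA particles. Rip2 usually denotes a promoter of insulin, which drives transgenes in beta cells, so other cells of an islet preparation may keep the gene. The targeted exons, the ages and the number of animals pooled are not given in the sources used here.

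Each ribosome is built from 1 copy of most of these proteins, and the genes are therefore needed in matched amounts. Their mRNAs are short and abundant, and most begin with a C followed by a run of pyrimidines, the 5′ terminal oligopyrimidine (TOP) tract, through which mTOR signalling and the protein LARP1 set their translation. The mouse genome also carries many processed pseudogenes, reverse-transcribed copies of these mRNAs without introns. Reads that align equally well to a gene and to such a copy were not assigned to any gene by the counting used here.

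The gene counts summed to 24275628 in the labelled knockout library, 6025594 in the RIP, 13195732 in the IgG library and 26350813 in control islets. Reads aligned more than once made up 28.4%, 36.0%, 48.2% and 30.7% of the deposited totals in the same order. CPM stands for the count scaled by the library's total of gene counts. Igf2bp2 had 222 counts (9.14 CPM) in the library labelled knockout and 255 (9.68 CPM) in control islets, a ratio of 0.979 (0.814 to 1.18). The label is thus not checked by the count of the targeted gene, and a count over the whole gene does not test a deletion of part of it. The IgG library stands apart from its label. The 8 beta cell markers, Ins1 and Ins2 among them, summed to 966.3 CPM there, against 308758 CPM in control islets, and the 6 brown fat markers summed to 27670 CPM, against 270.5 CPM in control islets. In the RIP, the same lists stood at 235440 and 1875 CPM. Results that use the IgG library are therefore set beside the RIP over control islets, which does not use it. The 3 comparisons with control islets share 1 control library.

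With 1 library per group no test across samples is possible, and all differences are between libraries. Ratios are of counts scaled within each pair of libraries with edgeR's trimmed mean of M-values, TMM, with exact 95% intervals that cover counting error only. A gene was measured where its mean over both libraries was at least 1 CPM. It was called higher or lower where the interval excluded 1 and the fold was at least 1.5 for the labelled knockout, or at least 2 in the other comparisons.

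The TOP tract was looked for in the RefSeq promoter table (GRCm38.p6), which matched 66 of the 86 genes with 78 annotated start sites. The windows below run from 20 bases before the start site to 20 bases from it onward, and the capitals mark a pyrimidine run that begins with C and covers the first base of the transcript. They are shown because they carry the sequence that defines this class of mRNA. Rps27 and its intronless copy Rps27rt are both given because their counts differ as described further on.
Rps27, chr3:90213629-90213668, minus strand: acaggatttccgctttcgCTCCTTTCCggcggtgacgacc
Rps27rt, chr9:114982720-114982759, minus strand: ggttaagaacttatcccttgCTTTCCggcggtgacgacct
Rpl15, chr14:18270967-18271006, minus strand: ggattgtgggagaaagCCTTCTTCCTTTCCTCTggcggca
Rpl35, chr2:39005112-39005151, minus strand: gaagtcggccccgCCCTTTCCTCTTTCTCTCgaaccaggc
Rplp2, chr7:141447631-141447670, plus strand: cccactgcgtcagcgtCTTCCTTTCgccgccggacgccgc
Rps6, chr4:86857348-86857387, minus strand: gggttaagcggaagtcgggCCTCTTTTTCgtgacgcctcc
Rps18, chr17:33955646-33955685, minus strand: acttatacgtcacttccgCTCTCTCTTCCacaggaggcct
The annotated start of Rps3, chr7:99483690-99483729, minus strand, holds no such run: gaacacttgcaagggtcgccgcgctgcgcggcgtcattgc

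A C at the annotated start followed by pyrimidines, in a run of at least 5, was present at 17.9% of the 78 ribosomal protein start sites and at 2.51% of all 32851 start sites. A run of at least 8 that begins with C within 10 bases of the start was found at 30.8% of them and at 8.11% of all. The annotated start can miss the main start by some bases, as these searches allow only in the second count. In the window from 250 bases before to 50 bases after the start, the core of ETS factor sites, CCGGAA on either strand, was present in 47.4% of the 78 and in 14.9% of all. The core of YY1 sites, AAGATGG on either strand, was present in 15.4% and in 6.34%. TATAAA within 60 bases upstream was present in 1.28% and in 2.87%. The median GC content of these windows was 58.2%, against 52.7% over all promoters. Rps27rt shares with Rps27 a stretch of 38 bases that begins at the first base of its own transcript and at the second base of Rps27, while the bases before it differ in the windows above.

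The 86 genes held 0.817% of gene counts in the labelled knockout library, 0.734% in the RIP, 2.53% in the IgG library and 1.13% in control islets. The share was thus highest in the IgG library and lowest in the RIP. At least 1 count was found for 85 of the genes in the labelled knockout library, 78 in the RIP, 83 in the IgG library and 85 in control islets. Insulin and the other hormone and acinar enzyme genes took 36.7% of gene counts in the labelled knockout library, 25.8% in the RIP, 0.114% in the IgG library and 33.4% in control islets. Without those genes in the total the ribosomal protein share was 1.29%, 0.989%, 2.53% and 1.70% in the same order, so the IgG library remained highest and the RIP lowest.

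**Figure D1:**
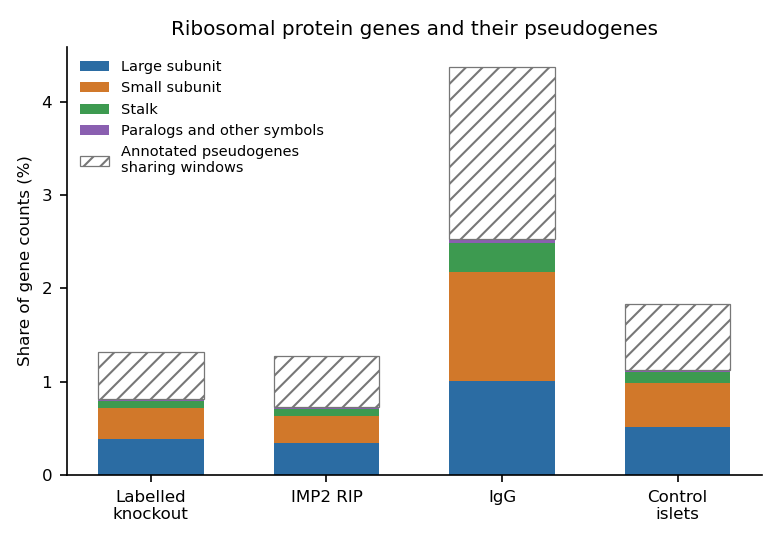
Share of gene counts (%) on the large subunit, small subunit, stalk and other genes in each library, 1 library per bar, with the annotated pseudogenes that share 50-base windows with them hatched on top. The genes alone make up 0.817% in the labelled knockout library, 0.734% in the RIP, 2.53% in the IgG library and 1.13% in control islets.

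Levels among the genes were compared per kilobase of exonic length. Among the highest in control islets were the stalk protein Rplp1 at 937.3 CPM per kb, the small subunit protein Rps15 at 727.4 and the large subunit proteins Rpl8 at 605.6 and Rpl4 at 526.5. The lowest were Rpl10l, listed at 0, Rpl3l at 0.0924, Rpl39l at 0.228, Rpl23a at 0.717 and Rpl24 at 0.995 CPM per kb. Rpl10l, Rpl3l and Rpl39l are paralogs known for expression in testis or striated muscle, but Rpl23a and Rpl24 encode proteins that every ribosome carries. Over the 77 genes without paralogs and other symbols, the standard deviation of the log2 level per kb was 2.26 in the labelled knockout library, 2.29 in the RIP, 3.70 in the IgG library and 2.40 in control islets. The order of levels per kb over the 86 genes was similar between the labelled knockout and control islets, with Spearman's rho of 0.991, and less so between the IgG library and control islets, with rho of 0.897; these values describe genes that share the same lengths and the same sequence copies.

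Among the stalk proteins, which recruit elongation factors, Rplp0 had 386.9 CPM in the labelled knockout library, 319.8 in the RIP, 597.6 in the IgG library and 576.6 in control islets. Rplp1 had 348.3, 437.3, 2295 and 467.7 CPM in the same order, and Rplp2 had 34.9, 54.1, 266.0 and 49.1 CPM. Rplp1 and Rplp2 thus stood several times higher in the IgG library than in any other, while Rplp0 differed less between the IgG library and control islets. CPM is scaled by library totals. A ratio of CPM between the IgG library and control islets is therefore 0.531 times the TMM ratio given further on. Small subunit genes divided in the same way. Rps15 had 323.0 CPM in the labelled knockout library, 286.8 in the RIP, 2074 in the IgG library and 458.3 in control islets, and Rps19, mutated in Diamond-Blackfan anaemia, had 97.5, 132.9, 923.9 and 144.6 CPM. Rpsa, the laminin receptor homologue, had 114.2, 129.3, 783.3 and 163.3 CPM. Rps3 was lower in the IgG library, at 268.9 CPM, and in the RIP, at 293.1 CPM, than in control islets, and Rps6 was low in all 4, with 155 counts in the labelled knockout library, 3 in the RIP, 34 in the IgG library and 136 in control islets. Rps6-ps4, a pseudogene of Rps6, had 1610, 369, 711 and 2712 counts in this order of libraries. In the large subunit, Rpl4, beside the exit tunnel, had 782.8 CPM in the labelled knockout library, 487.3 in the RIP, 449.4 in the IgG library and 1057 in control islets, and was highest in control islets, whereas Rpl8 had 586.3, 492.1, 1591 and 823.0 CPM and was highest in the IgG library. Rpl5, a partner of Rpl11 in the 5S particle, had 9.56 CPM in the labelled knockout library, 6.80 in the RIP, 6.59 in the IgG library and 7.82 in control islets, and Rpl11 had 19.7, 8.30, 15.7 and 23.4 CPM in this order of libraries. In every library both had more counts on their pseudogenes than on the gene. Summed with these, Rpl5 stood at 255.7 CPM and Rpl11 at 154.7 CPM in control islets.

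Among the paralogs, Rpl36al had 1886 counts in the labelled knockout library, 269 in the RIP, 842 in the IgG library and 1758 in control islets, and its X-linked relative Rpl36a had 92, 34, 25 and 97 counts. Rpl36a had most of its summed counts on pseudogenes in every library, 97.0% of them in the IgG library, where the sums were 63.4 CPM for Rpl36a and 69.2 CPM for Rpl36al. Rpl22l1 had 362, 58, 85 and 521 counts in this order of libraries, and Rpl22 had 2484, 781, 3237 and 3903. Rpl3l had 6, 0, 0 and 4 counts and Rpl10l 0 in every library, so that both paralogs were at or near the floor. Among core proteins Rpl23a had similarly few counts, with 9 in the labelled knockout library, 16 in control islets and 0 in both other libraries.

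Sequence shared with pseudogenes ran through the whole family. Each spliced protein-coding transcript was cut into all its 50-base windows and each window was looked up in the annotated transcripts of all other genes. The median gene had 66.6% of its windows in no other gene, and the range was 8.92% to 100%. Rps19bp1, Rpl3l and Rpl39l were among the 4 genes with every window to themselves. The other 82 shared windows with at least 1 annotated pseudogene, with a median of 8 pseudogenes and a maximum of 120 for Rpl7a. In control islets the 24 genes with at least 80% of windows of their own had a median level of 42.5 CPM per kb, the 54 with 20% to 80% had 15.4, and the 8 with under 20% had 23.2. The spread of levels was about as large per kb of unshared windows, with a standard deviation of 2.26 in control islets.

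Each of 766 copies, annotated as pseudogenes or carrying -ps in the symbol, was assigned to the gene with which it shared most windows. Its counts were added to that gene, and these copies are called annotated pseudogenes from here on. Copies of other annotation were not added, such as the protein-coding Gm10073 for Rplp1 and Gm11361 for Rps18. Genes of the family itself, such as Rps27rt for Rps27, were not added either, so some sums may be incomplete. The pseudogenes held 38.0% of these summed counts in the labelled knockout library, 42.3% in the RIP, 42.1% in the IgG library and 38.4% in control islets. For 36, 41, 40 and 37 of the genes in the same order, more counts lay on the pseudogenes than on the gene. Reads from a transcribed pseudogene and reads of the gene's mRNA placed on the copy cannot be told apart in these files.

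Rps29, a small subunit protein that binds zinc (ENSMUSG00000034892, mm10 chromosome 12, 69157722 to 69159186, minus strand), had 61 counts in the labelled knockout library, 0 in the RIP, 15 in the IgG library and 68 in control islets. For Gm14303, its copy on chromosome 2 (172509521 to 172509691, minus strand), the counts were 3316, 1131, 11481 and 4997 in this order of libraries. The sum was 139.8 CPM in the labelled knockout library, 190.4 in the RIP, 872.4 in the IgG library and 192.7 in control islets. Rpl24, a large subunit protein at the subunit interface (ENSMUSG00000098274, chromosome 16, 55966275 to 55971435, plus strand), had 31, 8, 4 and 27 counts, while its copy Gm9385 (chromosome 9, 116040593 to 116041064, minus strand) had 869, 803, 5333 and 1035. Summed with its copies, Rpl24 stood at 78.4 CPM in the labelled knockout library, 190.7 in the RIP, 593.1 in the IgG library and 86.6 in control islets. Both genes stood near the bottom of the family alone, and most of their summed counts lay on copies.

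**Figure D2:**
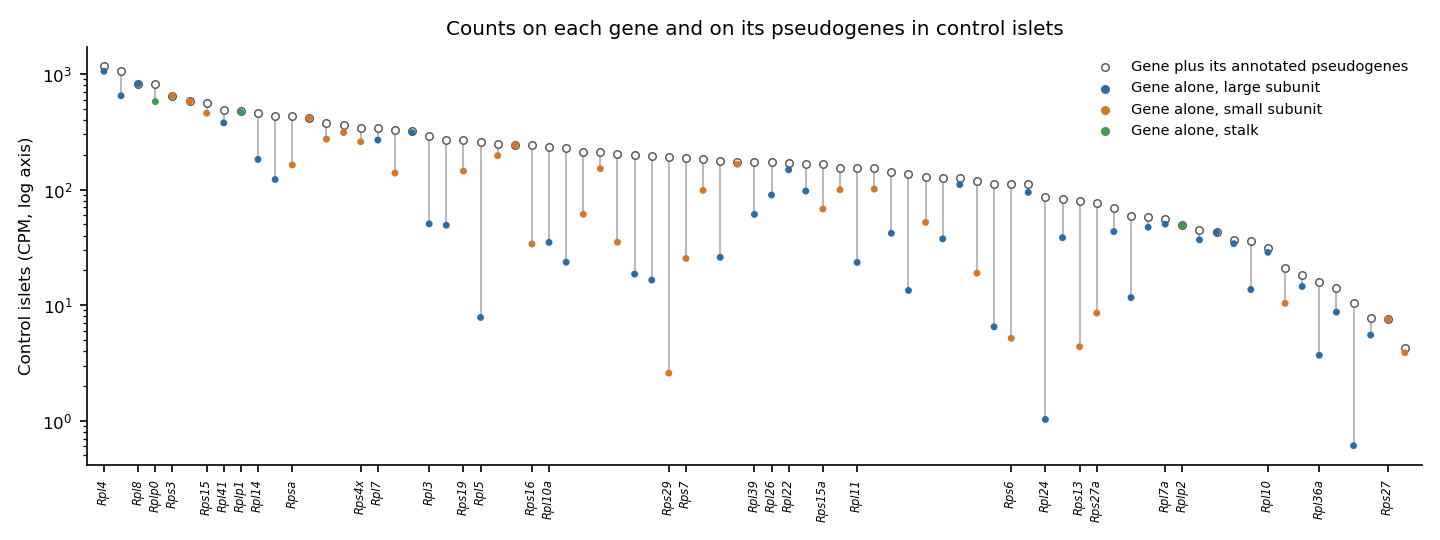
Level in control islets (CPM, log axis) of each large subunit, small subunit and stalk gene alone (filled) and summed with its annotated pseudogenes (open), ordered by the sum, with names at some of the genes described in the text; 1 library, no error bars. Rps29 stands at 2.58 CPM alone and 192.7 CPM summed, while Rpl8 and Rps3 hardly move.

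The first comparison asks whether ribosomal protein mRNAs differ in level between the library labelled knockout and control islets. Among 82 measured genes there were 0 calls of higher and 8 of lower, against 6.13% higher and 15.3% lower of all 15735 measured genes, and the share called lower, 9.76%, was below that of all genes. Scaled by library totals, 13 were called lower. The ratio lay below 1 for 64 of the 82. The median log2 ratio was −0.34, against 0.00 over all measured genes. Small subunit genes had a median of −0.44 with 6 of 31 called lower, large subunit genes a median of −0.26 with 1 of 42, and the 3 stalk genes −0.44 with 0.

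The 8 called lower included Rps27, Rps16, Rps27rt, Rps3, Rps15a and Rpl7. Rps3, a small subunit protein at the mRNA entry channel (ENSMUSG00000030744, chromosome 7, 99477896 to 99483738, minus strand), had 9115 counts (375.5 CPM) in the labelled knockout and 17134 (650.2 CPM) in control islets, a ratio of 0.598 (0.583 to 0.613). Rps3 has 97.2% of its windows to itself, so little of its sequence is shared with other annotated transcripts. Rps16 had 453 counts in the labelled knockout and 891 in control islets, a ratio of 0.571 (0.509 to 0.641).

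Rps27 (ENSMUSG00000090733, chromosome 3, 90212522 to 90213651, minus strand) and Rps27rt (ENSMUSG00000050621, chromosome 9, 114982366 to 114982739, minus strand) encode the same kind of zinc-binding small subunit protein. Rps27 had 94 counts in the labelled knockout and 198 in control islets, a ratio of 0.534 (0.413 to 0.686). Rps27rt had 1420 counts in the labelled knockout and 2785 in control islets, a ratio of 0.573 (0.537 to 0.611). The intronless copy thus held more counts than the gene in both libraries, and both ratios were alike. The third relative, Rps27l, which is induced by p53, had 1028 counts in the labelled knockout and 915 in control islets, a ratio of 1.26 (1.15 to 1.38).

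At the other end were Rpl24 at 1.29 (0.745 to 2.25), Rps6 at 1.28 (1.01 to 1.62), Rpl10a at 1.27 (1.17 to 1.39) and Rpl5 at 1.27 (1.04 to 1.53). Rps6 is the small subunit protein phosphorylated by S6 kinase, and Rpl5 binds MDM2 together with Rpl11 when ribosome assembly is disturbed. Each of these 4 had most of its counts on pseudogenes. Summed with its copies, the ratio was 0.938 for Rpl24, 0.707 for Rps6, 0.781 for Rpl10a and 0.756 for Rpl5. Over the family the sums drew the ratios together: the interquartile range of the log2 ratios was 0.21 for the sums and 0.38 for the genes alone, with a median of −0.38, and 77 of 83 sums lay below 1. All 8 genes called lower alone were also called lower as sums, and sums called lower in addition included Rps3a1 and Rps7.

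The stalk proteins had ratios of 0.695 (0.677 to 0.713) for Rplp0, 0.771 (0.750 to 0.793) for Rplp1 and 0.737 (0.675 to 0.804) for Rplp2. Rpsa had a ratio of 0.724 (0.690 to 0.760), Rps19 0.698 (0.663 to 0.735), Rpl11 0.869 (0.770 to 0.981), Rpl3, next to the peptidyl transferase centre, 0.764 (0.701 to 0.832), and Rpl22 0.715 (0.680 to 0.753). The X-linked genes were Rps4x at 0.726 (0.699 to 0.755), Rpl39 at 0.788 (0.729 to 0.850), Rpl10 at 1.07 (0.961 to 1.18) and Rpl36a at 1.07 (0.793 to 1.43). Among the other paralogs and similar symbols, Rpl36al had a ratio of 1.21 (1.13 to 1.29), Rps19bp1 1.15 (1.02 to 1.31), Rpl7l1 0.787 (0.728 to 0.850) and Rpl22l1 0.781 (0.681 to 0.895).

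**Figure D3:**
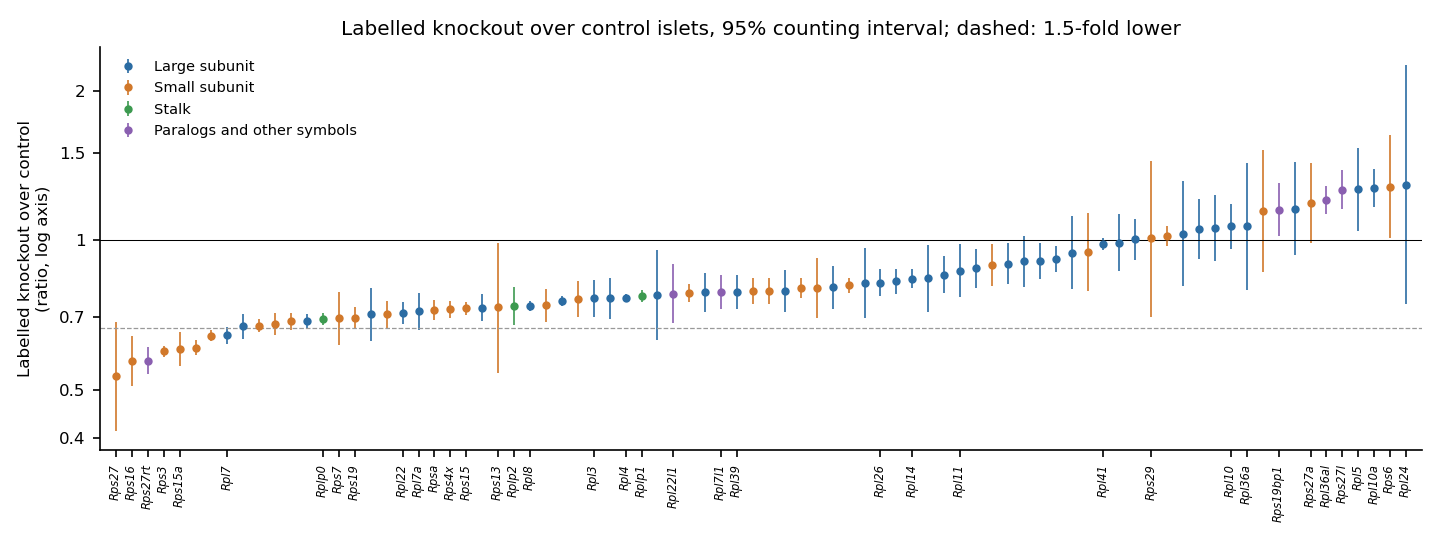
Ratio of the library labelled knockout over control islets (log axis) for the 82 measured genes, ordered by ratio, with names at some of the genes described in the text, with 95% counting intervals; the dashed line marks the limit for a call of lower. The 8 genes called lower stand at the left, 64 genes lie below 1, and no gene reaches 1.5-fold higher.

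Other genes of the translation machinery were set beside the family. Of 21 measured TOP mRNAs that encode no ribosomal protein, 0 were called higher and 5 lower, with a median log2 ratio of −0.39; Pabpc1, the poly(A)-binding protein, had 180.1 CPM in the labelled knockout and 387.3 CPM in control islets, a ratio of 0.482 (0.465 to 0.499). Of 9 elongation factor genes 2 were called lower, Eef1a1 with a ratio of 0.617 (0.608 to 0.626) and Eef2 with 0.634 (0.625 to 0.643), and the median was −0.20. Rack1, the ribosome's scaffold protein, had a ratio of 0.655 (0.641 to 0.670) and was called lower. Of 40 ribosome biogenesis genes 7 were called lower, among them nucleolin (Ncl) with a ratio of 0.622 (0.601 to 0.642), and the median was −0.18. Called lower were thus 23.8% of the TOP mRNAs, 22.2% of the elongation factor genes and 17.5% of the biogenesis genes. Of all 15735 measured genes, 15.3% were called lower and 6.13% higher, so the share of biogenesis genes was close to that of all genes. The 76 measured mitochondrial ribosomal protein genes, found by symbol, had a median of 0.05 with 1 called higher and 0 lower, and thus did not share the shift of the cytosolic family.

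Markers of other cells moved with this comparison. All 6 T cell markers were called lower in the labelled knockout and summed to 28.8 CPM there, against 205.3 CPM in control islets. All 6 B cell markers were called lower and summed to 168.9 CPM, against 875.9 CPM in control islets, and all 6 markers of dividing cells were called lower and summed to 94.5 CPM, against 297.3 CPM in control islets. None of these 18 markers was at 0 in either library. The 8 beta cell markers had a median log2 ratio of 0.37 with 1 called higher, and the 4 alpha cell markers a median of 0.79 with 3 called higher. Whether these cells carry part of the ribosomal protein difference was not tested, and in bulk RNA fewer cells of a type and less RNA per cell cannot be told apart.

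The second comparison asks which of these mRNAs were recovered with IMP2 over the IgG library. Among 79 measured genes, 6 stood higher and 58 lower in the RIP by these limits, against 43.2% higher and 30.5% lower of all 14822 measured genes. The median log2 ratio was −1.93 for the family and 0.44 for all measured genes, and −1.24 and 1.13 when scaled by library totals. Small subunit genes had a median of −2.27, large subunit genes −1.60 and stalk genes −2.98. Rpl27 and Rpl39l were at 0 counts in the RIP and at least 15.7-fold and 27.5-fold lower there against the floor of 3 counts per library. The next lowest were Rpl36 at a ratio of 0.0823 (0.0698 to 0.0966) and Rpl26 at 0.0836 (0.0762 to 0.0915). Rplp1 had 437.3 CPM in the RIP, against 2295 CPM in the IgG library, a ratio of 0.118 (0.114 to 0.123).

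The 6 genes called higher in the RIP were Rpl10a, Rpl10, Rps27a, Rpl3, Rpl7a and Rps7. Rpl10a had 164 counts (27.2 CPM) in the RIP, against 6 (0.455 CPM) in the IgG library, a ratio of 37.1 (16.7 to 103), and Rpl10, which completes the large subunit late in its assembly, had 56 counts in the RIP against 7 in the IgG library, a ratio of 10.9 (4.94 to 28.3). Rps27a, made as a fusion with ubiquitin, had a ratio of 5.94 (2.71 to 14.8), Rpl3 4.96 (3.76 to 6.61), Rpl7a 3.50 (2.63 to 4.70) and Rps7 3.45 (1.77 to 7.14). Counts in the IgG library were between 6 and 68 for these 6 genes, far fewer than in control islets. With the pseudogenes added, none of the 6 was called higher and 3 of them, Rpl10a, Rpl3 and Rps27a, were called lower. The sums gave 68 of 84 genes lower and 2 higher, Rpl23a and Rps27. Rps27 rests there on 27 counts of the RIP, all on pseudogenes, and on 2 counts of the IgG library. This sum leaves out its copy Rps27rt, which was called lower as a sum of its own.

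Set over control islets in place of the IgG library, the RIP differed far less. Among 82 measured genes, none (0) was called higher and 16 were called lower, against 16.8% higher and 24.3% lower of all 15968 measured genes, and the median log2 ratio was −0.33, against −0.12 over all measured genes. Scaled by library totals, 25 were called lower and the median was −0.61, against −0.40 over all measured genes. The lowest were Rps27, Rps13, Rpl27 and Rps29, which had 0 counts in the RIP and were at least 12.4-fold, 7.22-fold, 9.11-fold and 4.27-fold lower against the floor. The highest were Rpl35a at 1.89 (1.54 to 2.30), Rpl36a at 1.86 (1.22 to 2.78), Rps28 at 1.85 (1.55 to 2.21) and Rps27l at 1.82 (1.59 to 2.07). Of the 16 genes called lower alone, 5 were called lower as sums: Rpl10, Rpl27, Rpl29, Rps16 and Rps3a1. Another 5 sums were called higher, those of Rpl17, Rpl23a, Rpl24, Rpl35a and Rps23, and the median of the sums was −0.17. In the RIP, pseudogenes held 100% of the summed counts of Rpl23a, 99.3% of Rpl24, 56.8% of Rpl17 and 33.3% of Rpl35a. Rps29 and Rps13, with 0 counts in the RIP alone, had summed ratios of 1.20 and 1.01. Markers of other cells moved with this comparison too. All 6 brown fat markers were called higher in the RIP, with a median log2 ratio of 5.52. Of the 6 muscle markers 4 were called higher and 1 lower, and of the 4 red cell markers 3 were called higher and 0 lower. All 6 T cell markers were called lower and summed to 11.8 CPM in the RIP, against 205.3 CPM in control islets, with Cd3d and Cd8a at 0 counts in the RIP. Of the 6 B cell markers 5 were called lower, with a sum of 181.4 CPM in the RIP and 875.9 CPM in control islets, and of the 6 markers of dividing cells 5 were called lower, with 69.4 CPM in the RIP, Ccnb1 at 0 counts, and 297.3 CPM in control islets. Their part in the family's ratios was not tested.

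**Figure D4:**
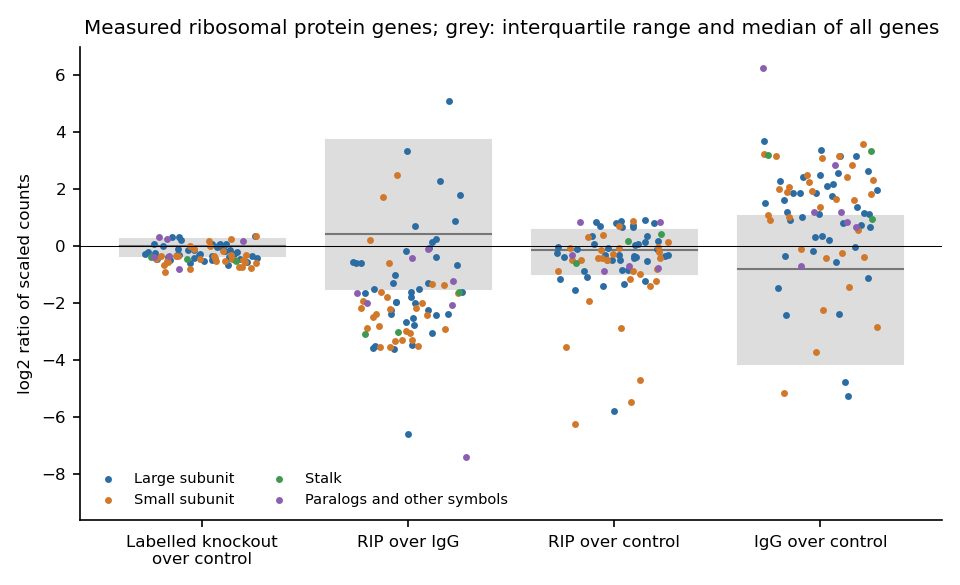
log2 ratio of scaled counts for the measured genes in each comparison, 1 point per gene, with the interquartile range and median of all measured genes in grey. The family median is −0.34 for the labelled knockout over control islets, −1.93 for the RIP over IgG, −0.33 for the RIP over control islets and 1.30 for IgG over control islets.

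The IgG library, which enters only the first of both RIP comparisons, was set over control islets in turn. Among 82 measured genes, 50 were called higher in the IgG library and 11 lower, against 25.7% higher and 47.3% lower of all 15352 measured genes. The median log2 ratio was 1.30 for the family and −0.79 for all measured genes. Scaled by library totals, 29 were called higher and 19 lower, with a median of 0.39 for the family and −1.71 for all measured genes. Rpl26 had 8110 counts in the IgG library and 2362 in control islets, a ratio of 12.9 (12.3 to 13.5), Rps19 had 12191 counts in the IgG library and 3811 in control islets, a ratio with an interval of 11.6 to 12.5, and Rpl41, the shortest of these proteins, had a ratio of 10.4 (10.1 to 10.6). Among the stalk genes Rplp1 had a ratio of 9.24 (9.05 to 9.43), Rplp2 10.2 (9.56 to 10.9) and Rplp0 1.95 (1.90 to 2.01). Rpl39l, a paralog of Rpl39 (ENSMUSG00000039209, chromosome 16, 10170226 to 10174911, plus strand), had 112 counts in the IgG library and 5 in control islets, a ratio of 84.2 (35.0 to 264), with 1 in the labelled knockout and 0 in the RIP. The mitochondrial ribosomal protein genes stood further up, 65 of 75 of them called higher at a median of 2.68. All 6 brown fat markers were called higher in the IgG library, with a median of 9.75, and all 8 beta cell markers lower, with a median of −7.29. All 6 muscle markers and all 4 red cell markers were also called higher there, with medians of 6.47 and 6.79. The part of these markers' cells in the family's levels was not tested.

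The 11 genes called lower in the IgG library were Rps27, Rpl10a, Rpl10, Rps7, Rps27a, Rpl3, Rpl7a, Rps13, Rpl9, Rps16 and Rpl6. For several, 1 pseudogene held far more counts than the gene in both libraries. Rpl10a (ENSMUSG00000037805, chromosome 17, 28328471 to 28331033, plus strand) had 6 counts in the IgG library and 920 in control islets, a ratio of 0.0245 (0.00897 to 0.0536). Rpl10a-ps1 (chromosome 1, 64993951 to 64994604, minus strand) had 4089 counts (309.9 CPM) in the IgG library and 5203 (197.5 CPM) in control islets. Rpl3 (ENSMUSG00000060036, chromosome 15, 80077791 to 80091868, minus strand) had 66 counts in the IgG library and 1330 in control islets, while Rpl3-ps1 (chromosome X, 13202571 to 13203780, plus strand) had 6740 (510.8 CPM) in the IgG library and 6026 (228.7 CPM) in control islets. Rps13 had 6 counts in the IgG library and 115 in control islets, and Rps13-ps2 on chromosome 7 had 3096 in the IgG library and 1954 in control islets.

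As sums, 65 of 84 genes were called higher in the IgG library and only Rps27 lower, with a median log2 ratio of 1.79. The Rps27 sum leaves out Rps27rt, its copy with many more counts in control islets, which is in the family itself. Of the 11 called lower alone, 6 were called higher as sums: Rpl10a at 2.52-fold, Rpl3 at 3.40, Rps27a at 4.12, Rps13 at 5.75, Rpl9 at 3.70 and Rps16 at 3.50. Rps7 at 0.563 and Rpl10 at 0.515 stayed below 1 without a call. Rpl14 went the other way. The gene had 7722 counts in the IgG library and 4805 in control islets, but Rpl14-ps1 (chromosome 7, 45324965 to 45325617, plus strand) had 1307 in the IgG library and 7359 in control islets, so that the pseudogene took 14.5% of the sum in the IgG library and 60.5% in control islets. The division of counts between a gene and its copy thus differed between libraries in both directions; the cause was not tested.

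**Figure D5:**
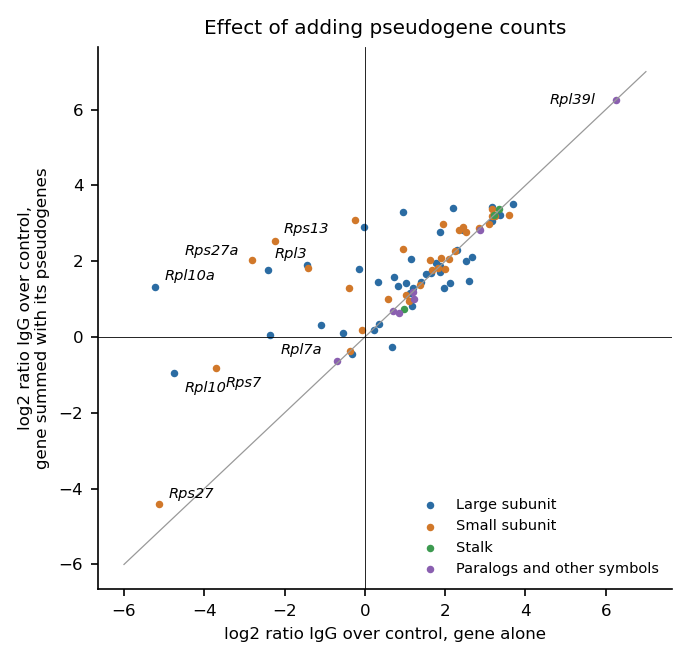
log2 ratio of the IgG library over control islets for each measured gene alone (x axis) and summed with its annotated pseudogenes (y axis), 1 point per gene, with the line of equal values. Rpl10a moves from −5.24 alone to 1.33 summed and Rps13 from −2.24 to 2.52, while Rps27 stays below −4. The Rps27 sum leaves out its copy Rps27rt.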

How the data were processed

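The authors deposited RNA-seq as raw counts per gene for each of 4 libraries. Per the submitters' processing notes, the authors used STAR and HTSeq with the mm10 build; their versions, the annotation release and the strand setting are not given in the sources used here, and overlapping and antisense genes may not be separable. The 5 closing entries that name no gene held 50.3% of the deposited total in the labelled knockout, 72.4% in the RIP, 70.5% in the IgG library and 50.8% in control islets, and stayed out of library sizes.

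Symbols, coordinates and transcripts came from GENCODE M21 (GRCm38, the assembly of mm10), which matched 42462 of 43629 identifiers. CPM was computed over gene counts, and each pair of libraries was scaled by TMM in edgeR 4.0.16 under R 4.3.3. Intervals are Clopper-Pearson at 95%, on 1 count out of the sum of both. For log2 values 0.5 counts were added. The libraries have no molecular identifiers and reads can be copies of 1 molecule, so intervals and floors (3 counts: 0.124 CPM in the labelled knockout, 0.498 in the RIP, 0.227 in the IgG library, 0.114 in control islets) cover counting error only. In counts simulated with counting error only and scaled by library totals, 200 genes, none of low count, were changed 3-fold. The calls recovered 99% to 100% of them in the 4 comparisons. A 3-fold change lies above both fold limits, so the simulation does not test smaller ratios, low counts, copied reads or TMM.

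The family, the other gene lists and the comparisons were chosen with earlier results of these data known, and the assignment of pseudogenes was added after seeing the counts. The genes named with values are the stalk proteins, the paralogs, the 5 highest and 5 lowest per kb in control islets, the 4 highest and 4 lowest ratios per comparison and 13 role examples; others were named because a count of genes called or a pseudogene turned on them, after their values were seen. Some genes that this rule names are not reported here. Alternatives were other scalings (DESeq2 1.42.0 among them), level limits, fold limits, division by a stand-in for reads per molecule, and the sums with pseudogenes. Other steps ran in Python 3.11.15 (pandas 2.3.3, SciPy 1.17.1, NumPy 2.4.6, Matplotlib 3.10.9).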

Additional observations from a re-analysis of the deposited data

Results flagged for a closer look

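Reads that aligned more than once, which enter no gene's count, made up 36% of the deposited total for the RIP and 48.2% for the IgG library, above the 30.7% of control islets. Ribosomal protein pseudogenes, identified by symbol and outside the family as defined, held 0.859% of gene counts in the IgG library, above the 0.351% of control islets.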

How the results depend on the processing

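No paired analysis was possible because each group has 1 library, and for the same reason no replicate could be left out. The planned check of windows against the whole genome was not run; windows were compared with annotated transcripts. Library totals in place of TMM shift the median of all genes by −0.05 on the log2 scale for the labelled knockout, 0.69 for RIP over IgG, −0.28 for RIP over control and −0.91 for IgG over control, and DESeq2 size factors shift the last by 0.17. With library totals the labelled knockout had 13 genes lower; RIP over IgG a median log2 of −1.24; RIP over control 25 lower and a median of −0.61; and IgG over control 29 higher, 19 lower and a median of 0.39. With DESeq2 size factors the IgG over control median was 1.47. A minimum of 5 CPM left 3 genes higher in RIP over IgG and an IgG over control median of 1.52. A fold limit of 2 left 0 genes lower in the labelled knockout, and a limit of 1.5 gave 12 higher and 26 lower in RIP over control. The following alternatives were chosen after seeing the data. Among genes with at least 80% of windows to themselves, 3 of 21 were lower in the labelled knockout, 0 higher and 19 lower of 22 in RIP over IgG, 1 of 21 lower in RIP over control, and 17 higher and 0 lower of 22 in IgG over control, with a median of 1.73. Counts divided by 18 and 21 reads per molecule in the RIP and the IgG library gave 2 higher in RIP over IgG, 6 lower in RIP over control and 7 lower in IgG over control. Summing each gene with its pseudogenes gave 2 higher in RIP over IgG, 5 higher and 5 lower in RIP over control, and 1 lower and a median of 1.79 in IgG over control. Reversals are listed only for genes called alone or as sums. Ratios that changed direction without a call are left out, such as Rpl24, Rps6, Rpl10a and Rpl5 in the labelled knockout. The sums turned these log2 ratios round: in RIP over IgG, Rpl10 (−0.34), Rps25 (−1.35), Rps27a (−1.69), Rpl6 (−1.34), Rpl10a (−2.25), Rpl9 (−2.57), Rpl3 (−2.25), Rpl7a (−0.22) and Rpl36a (−2.12); in RIP over control, Rps29 (0.26), Rps12 (0.68) and Rps13 (0.01); in IgG over control, Rps25 (1.29), Rpl19 (1.80), Rps27a (2.04), Rpl6 (0.33), Rps29 (3.09), Rps16 (1.81), Rpl10a (1.33), Rpl9 (1.89), Rpl3 (1.77), Rpl7a (0.05), Rpl36a (2.91) and Rps13 (2.52). The share of gene counts with pseudogenes by symbol was 1.07% in the labelled knockout, 0.979% in the RIP, 3.39% in the IgG library and 1.48% in control islets, and without hormone and acinar genes 1.29%, 0.989% and 1.70% in the labelled knockout, the RIP and control islets. Other counts of calls kept within 1.5 times. Other medians moved by less than the typical counting error of a single gene, which is not the counting error of a median. The cause of these changes was not tested, beyond the fewer genes in the windows and level limits. Depth limits the RIP most, where 3 counts are 0.498 CPM.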

Other observations

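Among the pseudogenes found by a ribosomal protein symbol, the one with the highest mean CPM over the 4 libraries was Rpsa-ps10, with 165.1 CPM in the labelled knockout library, 142.9 CPM in the RIP, 1379 CPM in the IgG library and 230.4 CPM in control islets. Rpl37rt, annotated as a transcribed processed pseudogene, had 150.2 CPM in the labelled knockout library, 141.9 CPM in the RIP, 445.0 CPM in the IgG library and 205.8 CPM in control islets, and Rpl37 itself had 20.6, 32.7, 79.3 and 23.5 CPM in the same order.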
